A study of Drosophila melanogaster with 4 samples.

Results

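The Wnt gene cluster of Drosophila melanogaster lies on chromosome arm 2L and holds Wnt4, wg, Wnt6 and Wnt10. It was described here by every dSFMBT-enriched region that overlapped 2L:7230000-7390000 in FlyBase release 5 coordinates, a window of 160 kb. Regions were taken by position and not by score, but the locus was chosen with earlier results of these data known. The window held 13 of the 9756 regions in the list that combined the ChIP replicates. It held 9 of the 5514 regions of replicate 1 and 10 of the 6004 regions of replicate 2. The material was Oregon-R, a wild-type strain with no allele or treatment in any group, collected as third-instar larvae, and the 4 samples were 2 ChIP replicates with the dSFMBT antibody Q2642 and 2 inputs. The inputs had no list of regions, so no value of the locus was measured in them here. Nothing in the labels ties the replicates to separate batches of larvae, so the spread between them may be technical. Each value is an average over all cells of the larva, so binding in fewer cells and weaker binding in each cell cannot be told apart.

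Wnt genes encode secreted ligands that bind Frizzled receptors on neighbouring cells and, in the canonical pathway, stabilise β-catenin, called Armadillo in the fly. wg (wingless, the fly Wnt1 gene) patterns the embryonic segments and organises the growth of the wing and leg imaginal discs of the larva. Polycomb group proteins keep developmental genes silent outside the cells that use them, and they act through DNA elements that recruit them. dSFMBT carries MBT repeats and forms the PhoRC complex with Pho, a protein that recognises DNA at such elements. In a gene table of release 6, all 4 genes were found and followed each other along 2L in the order Wnt4, wg, Wnt6 and Wnt10. Ordered by start, that table listed CG31909 between Wnt4 and wg and a long noncoding RNA gene between wg and Wnt6. After Wnt10 it listed an antisense RNA gene and then ninaC, which encodes a myosin of photoreceptor cells. The table and the regions belong to different releases, so the regions are given by position along the arm and none is assigned to a gene.

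Each region carried 1 score from the authors, read here as a log2 value, and a ratio is 2 raised to that score. The denominator of that ratio is not given. Of the 13 combined-list regions, 8 shared 1 bp or more with a region in each replicate list, a share of 61.5% (95% interval, exact Clopper-Pearson, 31.6 to 86.1%). Over the whole combined list the share was 41.4%, which lies inside that interval. The 13 regions covered 34.2 kb, or 21.4% of the window, and the 8 found in both replicates, called shared regions below, covered 15.0%. Seen from the replicates, 8 of the 9 locus regions of replicate 1 had a partner in replicate 2, against 79.4% over the whole list. In the other direction 8 of the 10 locus regions of replicate 2 had a partner in replicate 1, against 71.1% over the whole list.

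A ratio above 2 was reached by 3 of the 13 regions, 23.1% (95% exact interval 5.04 to 53.8%), where 6.21% of all combined-list regions reached it. The interval holds the background share, so at 13 regions the difference was within counting error. All 3 were shared regions, as were 471 of the 606 combined-list regions above this limit. Thus 3 of the 8 shared regions of the locus passed it, against 11.7% of all shared regions. That share rests on the same 3 regions and is given without an interval. The 3 regions exceeded a ratio of 2 in each of the 3 lists. Over the whole series, 347 of the 471 shared regions with a combined ratio above 2 did so in each list, which was 73.7%.

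The highest of these was 2L:7280507-7282798, 2292 bp wide. Its score was 1.15 in replicate 1, 2.00 in replicate 2 and 1.67 in the combined list, and the mean of the replicates was 1.58 ± 0.60 (SD, n = 2). These scores are ratios of 2.22 in replicate 1 and 4.01 in replicate 2 for the same stretch of DNA. Their difference of 0.85 was unusual for the series, since 0.743% of the 4036 shared regions differed by more. By combined score the region ranked 127 of 9756. It ranked 274 in replicate 1 and 51 in replicate 2. Its edges moved little in spite of that difference, and the whole 2122 bp called in replicate 1 lay inside the region called in replicate 2.

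The next was 2L:7305381-7308141, with a score of 1.29 in replicate 1, 1.18 in replicate 2 and 1.18 in the combined list. The replicate mean was 1.24 ± 0.077 (SD, n = 2), a spread close to the median replicate SD of 0.077 over all shared regions. The centre of this region lay 25.1 kb from that of the highest one. The third, 2L:7357971-7360685, scored 1.29 in replicate 1, 1.07 in replicate 2 and 1.16 in the combined list, a replicate mean of 1.18 ± 0.16 (SD, n = 2). It lay a further 52.6 kb along the arm. In replicate 1 these 2 regions ranked 193 and 194 of 5514 and stood above the region from 7280507, whereas in replicate 2 that region stood above both. The order of the 3 strongest regions was thus not the same in the replicates. Their widths ran from 2292 to 2761 bp, below the median of all shared regions, 2878.5 bp.

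**Figure D1:**
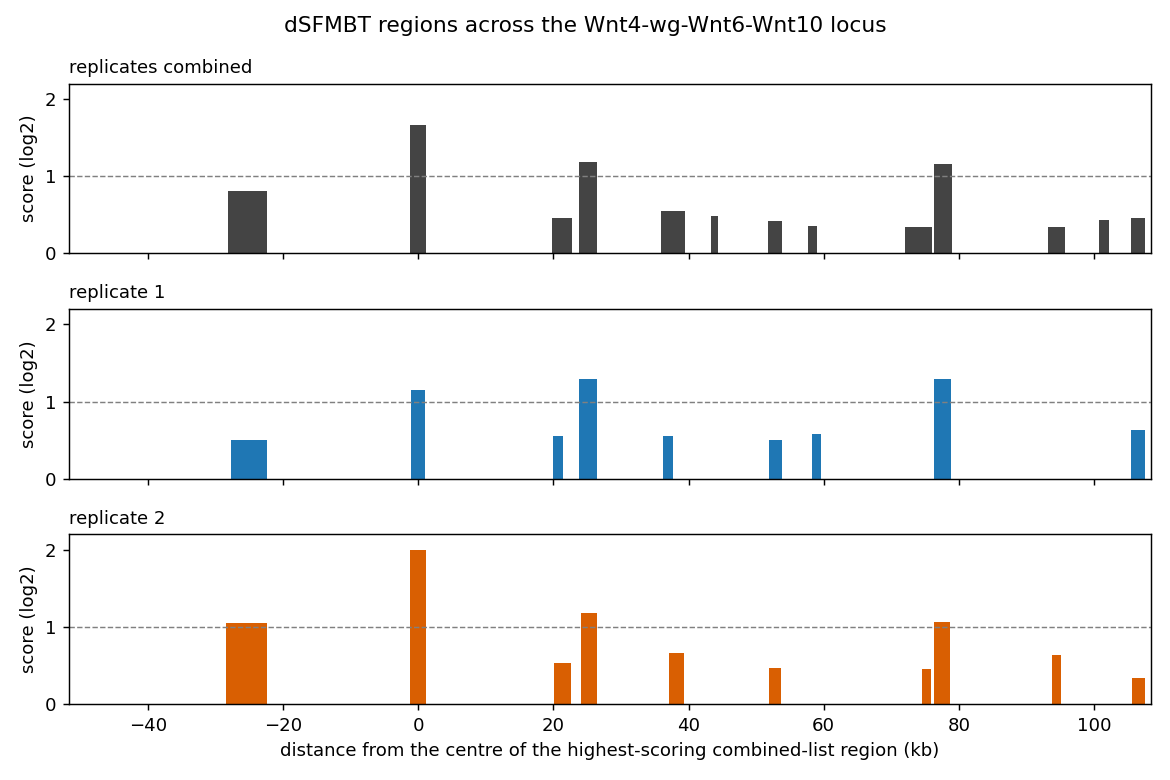
Regions across the locus in the combined list (top), replicate 1 (middle) and replicate 2 (bottom); the x axis is the distance in kb from the centre of the highest-scoring region, the y axis is the authors' score (log2), bar width is region width and the dashed line marks a ratio of 2. The bars at 0, 25.1 and 77.7 kb exceed the line in all 3 lists, and the broad bar at -25.2 kb exceeds it in replicate 2 alone.

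The broadest region of the locus, 2L:7253543-7259306, spanned 5764 bp and ranked 403 of 9756 by width. Its score was 0.50 in replicate 1, 1.05 in replicate 2 and 0.81 in the combined list, with a replicate mean of 0.77 ± 0.39 (SD, n = 2). Only replicate 2 put it above a ratio of 2. In both replicates it was called as 1 piece, and the calls shared 5381 bp. The breadth was therefore similar in the libraries while the score was not.

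The other 4 regions found in both replicates had combined scores from 0.419 to 0.555. These lay above the median of the whole combined list, 0.418, and below that of all shared regions, 0.564. The region 2L:7301512-7304338 scored 0.56 in replicate 1 and 0.54 in replicate 2. It ended 1042 bp before the strong region from 7305381, its nearest neighbour. The region 2L:7333410-7335500 scored 0.50 in replicate 1 and 0.47 in replicate 2, and its centres lay 40 bp apart. The replicate SD of these 2 regions was 0.014 and 0.022, so the lower-scoring shared regions of the cluster included those with the smallest spread. The region 2L:7387111-7389193 scored 0.64 in replicate 1 and 0.34 in replicate 2, a mean of 0.49 ± 0.21 (SD, n = 2). It lay 807 bp inside the right edge of the window and was the member closest to an edge.

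The region 2L:7317639-7321068 had nearly equal scores, 0.56 in replicate 1 and 0.66 in replicate 2, but the calls covered different parts of it. Replicate 1 placed its call from 7317938 to 7319395 and replicate 2 from 7318825 to 7321014, so the calls shared 571 bp and their centres lay 1253 bp apart. The median distance between centres was 106 bp over the 8 regions and 161 bp over all 4036 shared regions. This region was the one of the 8 that no longer counted as found in both when each replicate had to cover 50% of it.

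**Figure D2:**
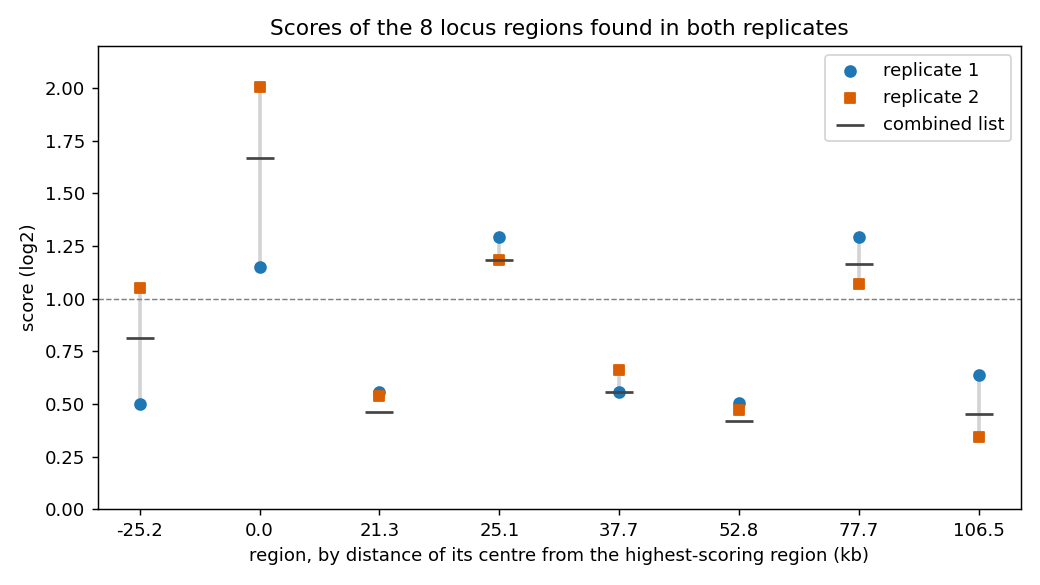
Scores (log2, y axis) of the 8 locus regions found in both replicates, ordered along the arm and labelled by the distance of their centres from the highest-scoring region (kb, x axis); circles are replicate 1, squares replicate 2, dashes the combined list, and the dashed line a ratio of 2. The regions at -25.2 and 0 kb have the widest gaps, with replicate 2 higher by 0.55 and 0.85.

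The remaining 5 combined-list regions were not found in both replicates, and their combined scores ran from 0.34 to 0.48. The region 2L:7339327-7340592 overlapped replicate 1 alone, where the score was 0.58, and 9.89% of all combined-list regions did so. The regions 2L:7353745-7357626 and 2L:7374821-7377394 overlapped replicate 2 alone, where the scores were 0.45 and 0.63, and the share over the whole list was 16.7%. Of that pair, the region from 7353745 ended 344 bp before the strong region from 7357971, the narrowest gap of the locus, and merging regions within 500 bp made them 1. The regions 2L:7324989-7326049 and 2L:7382357-7383814 overlapped neither replicate list and were 1061 and 1458 bp wide. The smallest region in either replicate list was 1301 bp, so the narrower of them lay below the width of any replicate call. The region from 7339327, 1266 bp wide, lay below it too and still overlapped a replicate 1 call. Regions that overlapped neither replicate thus made up 2 of 13 in the locus (15.4%, 95% exact interval 1.92 to 45.4%), against 32.1% of the whole combined list.

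The replicates differed in both directions along the locus. The 2 regions nearest its left edge, from 7253543 and 7280507, were higher in replicate 2 by 0.55 and 0.85. Of the 6 regions to their right, 5 were lower in replicate 2, by 0.02 to 0.30, and the region from 7317639 was higher by 0.11. In all, 3 of the 8 shared regions were higher in replicate 2 (37.5%, 95% exact interval 8.52 to 75.5%), against 59.1% of all shared regions. That background share lies inside the interval. The median difference, replicate 2 minus replicate 1, was -0.03 in the locus and 0.03 over all shared regions. The median replicate SD was 0.12 in the locus and 0.077 over all shared regions. In the locus the libraries called most of the same DNA. No share of bases over the whole lists is given here. By number of regions, 79.4% of replicate 1 and 71.1% of replicate 2 had a partner over the whole lists. Of the 21.0 kb covered in replicate 1, 84.8% was also covered in replicate 2, and of the 24.2 kb covered in replicate 2, 73.4% was covered in replicate 1.

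The regions were separated by gaps of 344 bp to 21.2 kb. The widest gaps, 21.2 and 18.7 kb, lay on either side of the highest-scoring region, so it stood apart from its neighbours. To the left, the first member began 23.5 kb inside the window. The nearest combined-list region outside it on that side, 2L:7226266-7227524, ended 2476 bp from the edge with a score of 0.28, and the nearest on the right, 2L:7408892-7410413, began 18.9 kb from the edge with a score of 0.27. No region crossed an edge, so the number of members was also 13 when only regions lying wholly inside were counted.

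The next comparison set the locus against the stretches of the same length directly beside it. Regions found in both replicates numbered 8 in the locus, 4 in the left flank and 5 in the right flank. With a ratio above 2 there were 3 in the locus and 0 in each flank. The highest combined score was 1.67 in the locus, 0.77 in the left flank and 0.85 in the right flank. Covered length separated them less, since regions found in both replicates covered 15.0% of the locus, 6.53% of the left flank and 13.7% of the right flank. Against the right flank the order turned in other lists: the combined list covered 21.38% of the locus and 21.44% of the right flank, and replicate 2 covered 15.1% of the locus and 16.1% of the right flank, while replicate 1 covered 13.1% of the locus and 11.7% of the right flank. The right flank owed much of that to 1 broad region of 11323 bp, 2L:7417112-7428434, with a score of 0.89 in replicate 1 and 0.90 in replicate 2. The whole combined list had 13 regions in the locus, 8 in the left flank and 12 in the right flank. There is 1 locus and no replicate of it, so these contrasts have no test.

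**Figure D3:**
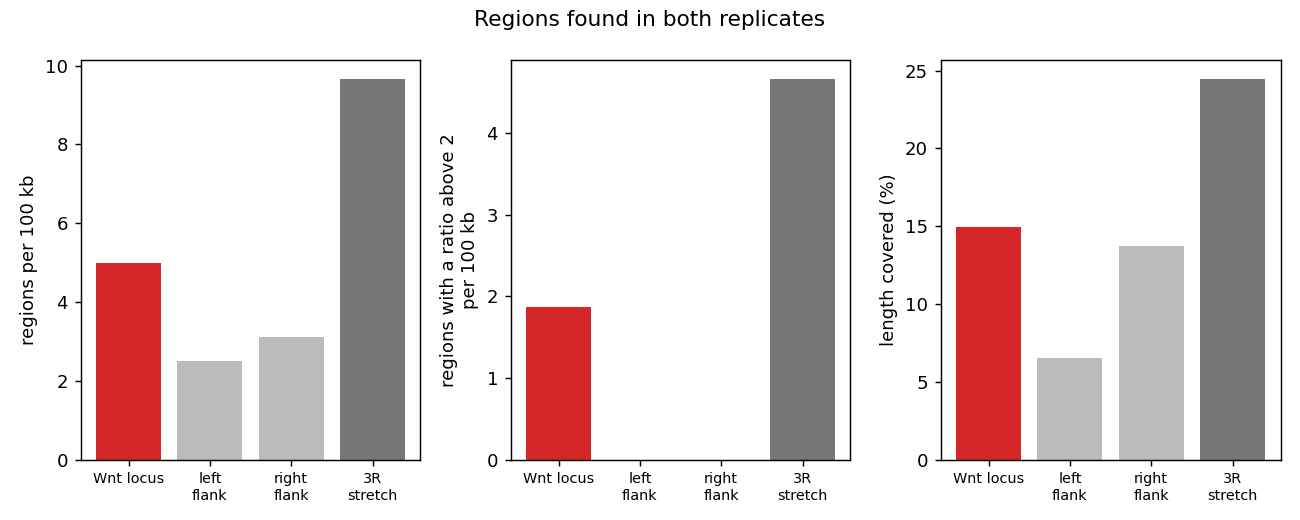
Regions found in both replicates in the Wnt locus, its left and right flanks of the same length and the 3R stretch; the panels give the number per 100 kb, the number with a ratio above 2 per 100 kb and the percent of the length covered (y axes, from 0). The locus has 5.00 regions per 100 kb and 1.87 with a ratio above 2, the flanks have 0 of the second kind, and the 3R stretch has 9.67 and 4.67.

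Against windows of its own length laid end to end along the 6 arms 2L, 2R, 3L, 3R, 4 and X, the locus was ordinary in number and higher in score. Of the 748 windows that did not touch it, 196 (26.2%) held at least 8 regions found in both replicates, and their median was 5. At least 3 such regions with a ratio above 2 were held by 31 windows (4.14%), while 438 windows (58.6%) held 0. A highest score of at least 1.67 was found in 51 windows (6.82%), and the median over the windows that held a shared region was 0.94. These are combined scores, and that of the locus came from the region from 7280507, with 1.15 in replicate 1 and 2.00 in replicate 2. Window ranks by the scores of a single replicate are not given here. All 3 conditions together were met by 11 windows. The locus covered 24.0 kb by shared regions, and 225 windows (30.1%) covered at least as much. These ranks describe the windows and are not tests, because the locus was chosen with earlier results of these data known.

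**Figure D4:**
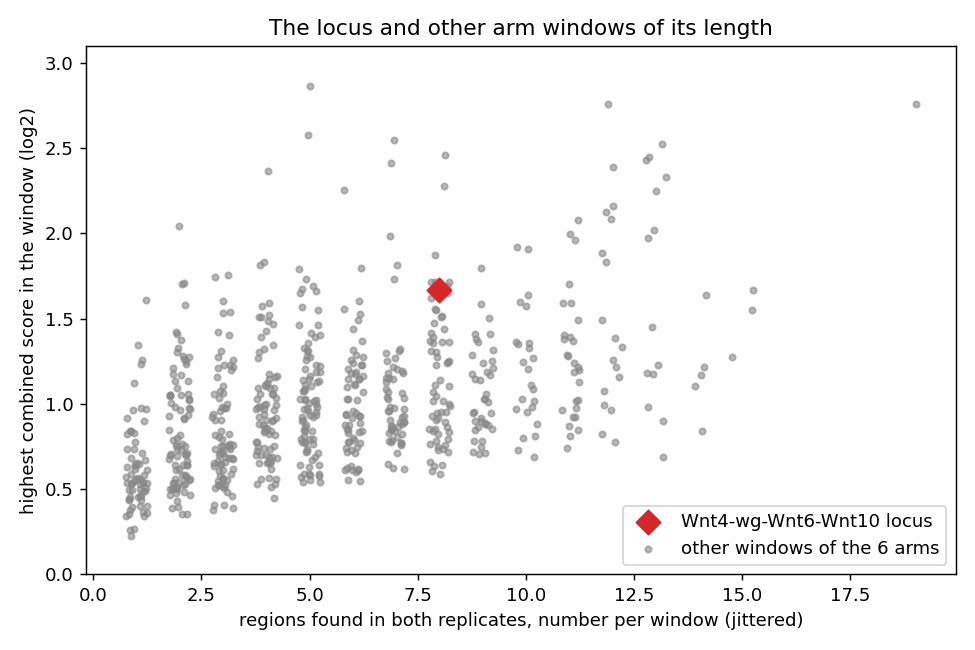
Each point is a window of the locus's length on the 6 arms, by its number of regions found in both replicates (x axis, jittered) and the highest combined score among them (y axis, log2); the diamond is the Wnt locus and windows with 0 such regions are not drawn. The diamond stands at 8 regions and 1.67, and 51 of the 748 other windows have a highest score of at least 1.67.

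The 3 windows most like the locus had the same number of shared regions and the nearest highest score. The window 2L:7840050-8000050 had a highest score of 1.65 with 1 region above a ratio of 2, and 2R:11680074-11840074 had 1.69 with 1 such region. The window 2L:5280034-5440034 had 1.63 with 4 such regions. Shared regions covered 15.0% of the locus and, in the same order, 13.6%, 15.2% and 18.5% of these windows. The stretch 3R:12500001-12800000, picked because no other 3 adjacent tiles of 100 kb on the arms held more shared regions with a ratio above 2, was denser by that choice. The locus had 5.00 shared regions per 100 kb and the 3R stretch 9.67. For a ratio above 2 the densities were 1.87 in the locus and 4.67 in the 3R stretch, and the highest combined scores were 1.67 and 2.76. The median score of the shared regions was 0.68 in the locus, 0.78 in the 3R stretch and 0.56 over the series.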

How the data were processed

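ChIP-seq lists of dSFMBT-enriched regions were used for 2 ChIP replicates and for the replicates combined, grouped by the sample titles. Per the submitters' processing notes, the authors used Bowtie 0.12.7, and the file headers give FlyBase release 5. How regions were called, at what threshold, with what use of the inputs, and how the combined list was made is, for these lists, not given in the sources used here. As for scale, the deposited scores were read as log2 values, because differences between the 12 most frequent scores matched log2 of ratios with denominators of at most 40 (tolerance 1e-07) in 16 to 44 of 66 pairs a list, and natural log or log10 in 0. Read depth is unknown, so intervals cover counting error only, and a region missing from a list may lie below detection.

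A region was found in a replicate when they overlapped by at least 1 bp, and its replicate score was the highest among those overlapped. Each of the 8 shared locus regions overlapped 1 region per replicate. No test between groups was possible, so values, SDs and exact binomial intervals are given. Python 3.11.15, numpy 2.4.6, pandas 2.3.3, scipy 1.17.1 and matplotlib 3.10.9 were used, and simulated lists gave the same overlaps with bedtools 2.31.1. All locus regions found in both replicates are named. The members, the lists and the comparison stretches were chosen with earlier results of these data known. Promoter motifs and protein identities of the Wnt genes were planned and not analysed here.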

Additional observations from a re-analysis of the deposited data

How the results depend on the processing

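The locus kept 13 regions when regions had to lie wholly inside it, and had 12 after merging within 500 bp and 9 to 10 in a single replicate list. Of the 13 regions, 9 overlapped replicate 1 and 10 overlapped replicate 2, whether or not the other replicate did. The number found in both replicates was 7 when each replicate had to cover 50% of the region. It was 3 when the replicate regions that counted were those no lower than their list's median score, a setting that by construction admits fewer regions, and those 3 were the regions with a ratio above 2. The number past the ratio limit was 4 above a ratio of 1.5 and 1 above a ratio of 3, and 3 to 4 in a single replicate. For these other settings of overlap and ratio, shares over all regions are not given here. The counts therefore do not compare the locus with the series. Covered length was 21.4% in the combined list, 15.0% for regions found in both replicates and 13.1 to 15.1% in a single replicate. The highest score was 1.29 without replicate 2, where another region was highest, and 2.00 without replicate 1. The share of windows with at least the locus's number was 24.8% with shifted tiles, 30.1% by covered length, 4.14% by regions with a ratio above 2 and 6.82% by highest score, each a different quantity. The excess over the mean of the flanks was 3.5 regions, 3 in the whole combined list and 3 to 4 in a single replicate list. For the scores of the 8 shared regions, a single replicate and the weighting by overlap could not leave 1 replicate SD by construction, so only the combined score bears on them, and 6 of 8 lay within it. The combined scores of the regions from 7301512 and 7333410 lay further away, at 0.46 and 0.42, below both replicates, and the cause was not tested. The combined score and the restriction of the ratio to shared regions were added after seeing the data. No paired analysis was possible because neither input carried a region list and nothing here compares groups by a test.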

Other observations

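In both flanks most shared regions were higher in replicate 2, as were 59.1% of all shared regions of the series. Of the 4 shared regions in the left flank, 3 were higher in replicate 2, the most at 2L:7202749-7205276, which scored 0.36 in replicate 1 and 0.95 in replicate 2. Of the 5 in the right flank, 4 were higher in replicate 2, by 0.01 to 0.36. The 5 locus regions that were lower in replicate 2 lay between 7301512 and 7389193. These regions were picked out after their values were seen.

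The combined score lay below both replicate scores at 4 of the 8 shared regions of the locus, and at 2154 of the 4036 shared regions of the series (53.4%). The gap was wider at 2L:7410518-7413287 in the right flank, with 0.27 in the combined list, 0.59 in replicate 1 and 0.50 in replicate 2.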
